A study of Mus musculus with 5 samples.

Results

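Macrophages and their myeloid relatives are represented here by 37 genes, chosen by symbol and described across 5 whole-kidney RNA-seq libraries. All 37 were found among the 23997 rows of the deposited table, 36 by their symbol and Adgre1 under its older symbol Emr1, which RefSeq lists as a synonym. The libraries came from whole kidneys of mice aged 8 weeks, and the series asked how metalloproteinases remodel the tubule basement membrane as tubules widen into cysts. Controls 0, 1 and 2 carry the genotype label of uninduced control, and knockouts 0 and 1 that of Pkd1 knockout. The mutants appear as SKO in the titles and as PkdTKO in the design text. The sources used here do not give the strain, the inducing agent, the driver of recombination or the sex of the mice. Nothing in the labels ties each library to an animal of its own, so p-values measure the spread between these libraries, which may be technical.

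Macrophages live in every kidney between the tubules, where they take up debris, present antigen and keep themselves through signals of the receptor CSF1R. Tissue-resident macrophages of the mouse kidney are known for high F4/80, the product of Adgre1, and for making complement C1q, while monocytes from the blood join them after injury. Alternatively activated macrophages, the state that interleukins of the type 2 response induce in mice, are known for arginase 1, the mannose receptor and the secreted protein encoded by Retnla. Macrophages are known to gather around cysts in polycystic kidneys. These genes were measured in RNA of the whole organ, in which more cells of a type and more RNA per cell cannot be told apart.

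The libraries labelled as knockouts differed from each other as well as from the controls. Depth is not stated with the table, FPKM summed to between 462814.3 and 507052.8 per library, and each library had 12324 to 12750 rows at an FPKM of at least 1. Pkd1, the gene named in the genotype, was at an FPKM of 3.22, 3.51 and 3.49 in controls 0, 1 and 2, 2.72 in knockout 0 and 3.60 in knockout 1, so the value over the whole gene does not check the labels. Xist was at 0.0222 to 0.0275 in the controls against 30.8 in knockout 0 and 80.3 in knockout 1, and the mean of 4 Y-linked genes, as a share of the controls, was 39.1% for knockout 0 and 0.0234% for knockout 1. Knockout 0 thus held both Xist and Y-linked RNA, and the labels do not say whether it came from more than 1 animal. The sex of the RNA moved with the group, and the part of sex and that of genotype cannot be told apart. Havcr1, the tubule injury marker KIM-1, was at 0.718 to 1.12 in the controls against 137.4 in knockout 0 and 0.593 in knockout 1. Of 5 injury genes averaging an FPKM of 1 or more, 5 were above every control in knockout 0 (34.2% of all such rows). In knockout 1, 2 of them were above and 2 below every control (38.4% and 38.5% of all such rows). Vcam1, which was above in both, was at 2.905 to 3.04 in the controls, then 24.2 and 5.42. Every member is accordingly given for each knockout library by itself as well as for the pair. Kidney genes were present in all libraries, with the water channel gene Aqp1 at 300.2 to 464.6 and the collecting duct channel gene Aqp2 at 248.2 to 351.4, whereas Lrp2 and Slc34a1, defining genes of the proximal tubule, were listed at 0 in all 5 and may be failed estimates.

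The myeloid genes stood well above the controls in knockout 0 and modestly above them in knockout 1. Of the 37 genes, 36 were higher in knockout 0 than in every control and 31 were higher in knockout 1 than in every control, and all 37 were higher in knockout 0 than in knockout 1. FPKM in knockout 0 was 1.08 to 18.4 times that in knockout 1, with a median of 3.22. A filter on low values, which asks for an FPKM averaging 1 or more across the libraries, kept 30 members for testing. Of these, 29 were above every control in knockout 0, where 34.2% of all 12640 tested rows were, and 28 in knockout 1, where 38.4% were. Knockout 0 was above every control and above knockout 1 in 29 of 30, against 25.2% of all tested rows. In both knockout libraries 28 of 30 were above every control, against 21.9% of all tested rows. Fcgr2b was below every control in knockout 0, where 43.9% of all rows were, and Fcgr2b and Fcgr4 were in knockout 1, where 38.5% were. In knockout 0, 28 of the 30 were at least 2-fold over the control mean in FPKM, against 6.02% of all tested rows, and in knockout 1 Lyz2 and Retnla were, against 2.06%. The median difference in log2(FPKM + 1) from the controls was 1.77 in knockout 0 and 0.38 in knockout 1 over the tested members, and -0.04 and 0.00 over all tested rows.

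**Figure D1:**
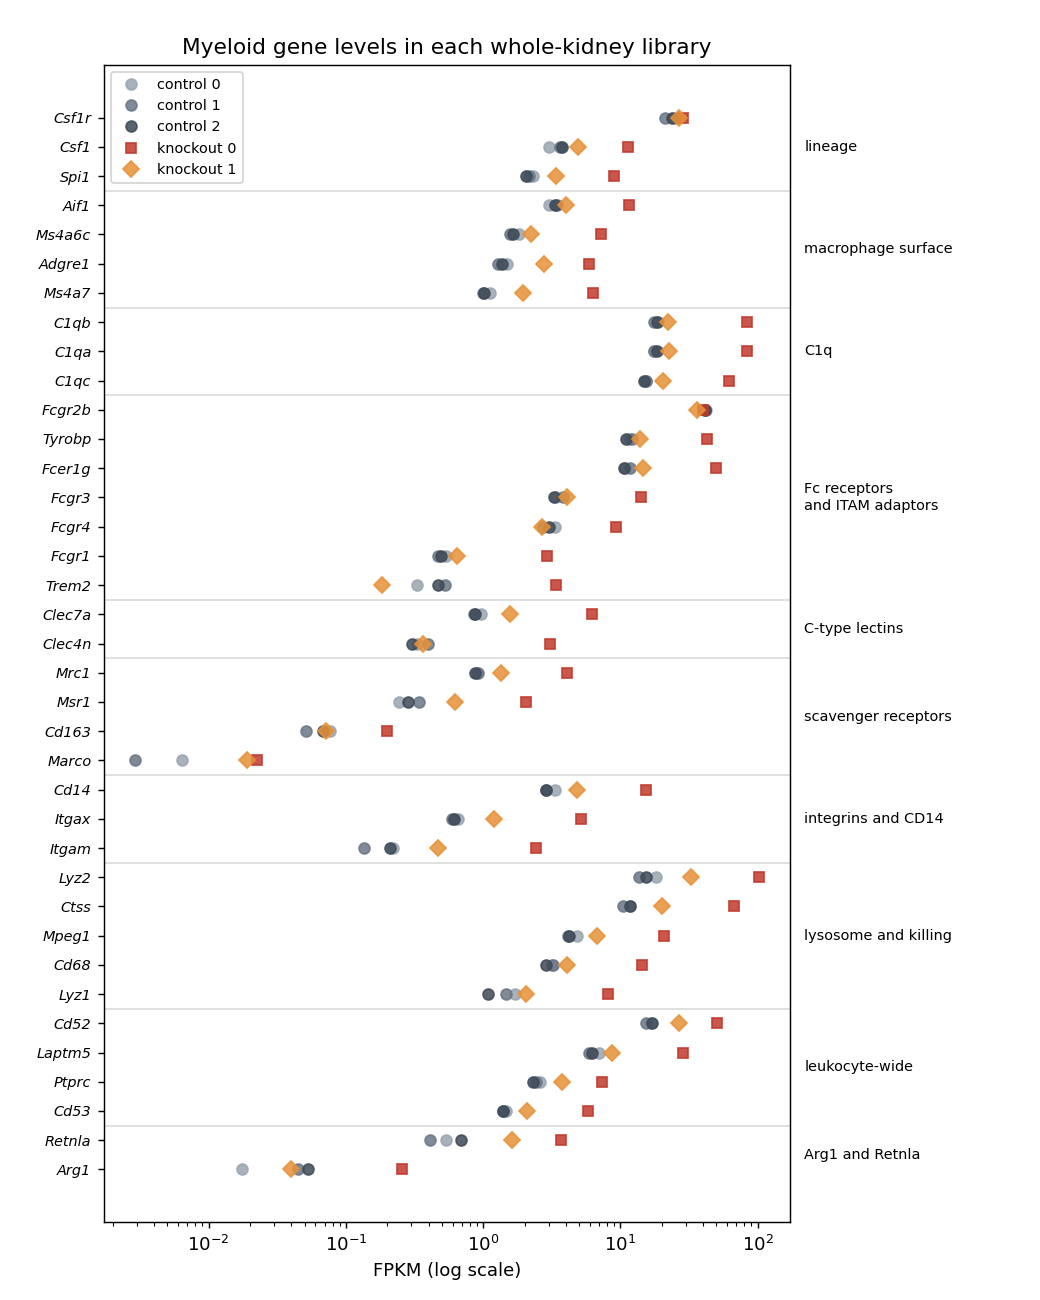
Each point is the FPKM (horizontal axis, log scale) of 1 gene in 1 library, grouped by role, with grey circles for the 3 controls, red squares for knockout 0 and orange diamonds for knockout 1; Marco, listed at 0 in control 2, has no point there. Knockout 0 lies to the right of every control in 36 of 37 genes, and Csf1r and Fcgr2b are the pair whose 5 points nearly coincide.

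No member passed when the pair of knockout libraries was tested together. With limma, on log2(FPKM + 1) over all 12640 tested rows and with Benjamini-Hochberg adjustment, 0 of 30 members were called higher, where 2.73% of all rows were, and 0 were called lower, where 3.62% were. At an unadjusted p under 0.05, 19 of 30 members were higher, against 12.5% of all rows, and 0 were lower, against 16.6%. Itgax, Mrc1, Fcgr1, Clec7a and Retnla have control means under 1 and passed the filter through the knockout libraries in which they are high, and 4 of them are among the 19. Of the 25 other tested members 15 were higher at an unadjusted p under 0.05, 23 were called higher in knockout 0 alone and 9 in knockout 1 alone. Adjusted p-values ran from 0.0624 for Retnla to 0.39 for Fcgr4. With 3 and 2 libraries the smallest p of a two-sided exact permutation test is 0.1. Of 30 members 28 reached it, Fcgr2b among them as lower, the exceptions being Csf1r (0.2) and Fcgr4 (0.5). Reaching it takes both knockout libraries above or both below every control, as in 21.9% and 26.3% of all tested rows. Against the same controls, knockout 0 alone had 28 of 30 members called higher (11.5% of all rows) and knockout 1 alone 12 of 30 (4.09% of all rows), with 0 called lower in either, where 9.09% and 4.25% of all rows were. These single-library fits assume that the lone knockout library varies like the controls, and they share the 3 controls.

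**Figure D2:**
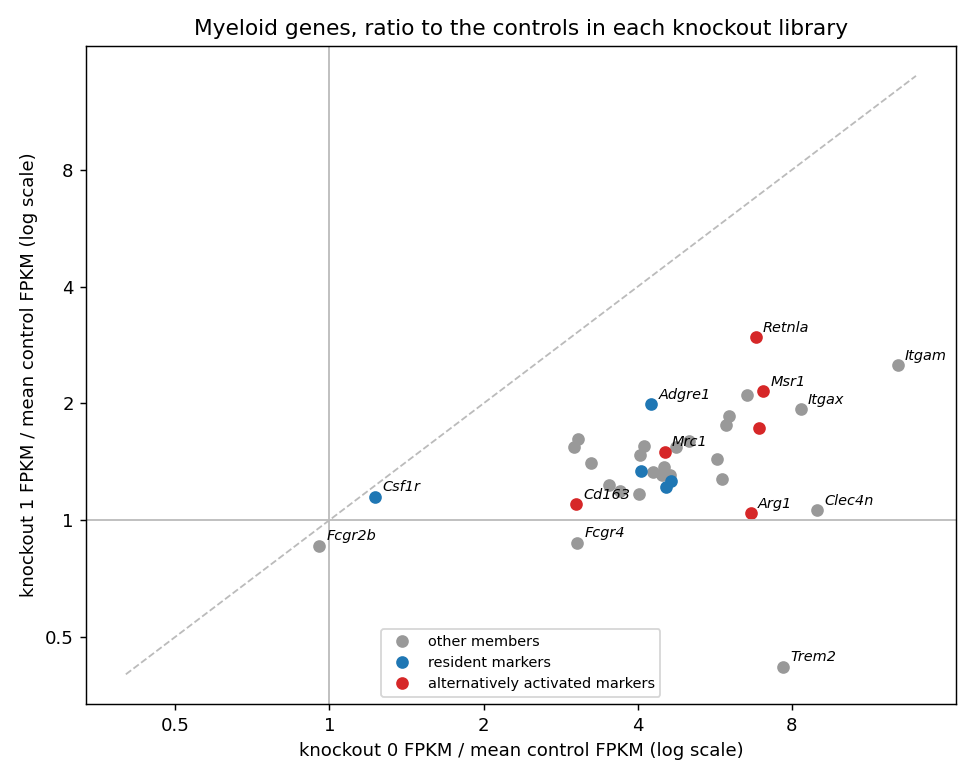
Each point is 1 of 36 genes (Marco, listed at 0 in a control, is not drawn), placed by its FPKM over the mean control FPKM in knockout 0 (horizontal) and knockout 1 (vertical), both on log scales, with resident markers in blue, alternatively activated markers in red and the dashed line marking equal ratios. All 36 points lie below the dashed line, Csf1r and Fcgr2b sit near a ratio of 1 on both axes, and Trem2 is lowest on the vertical axis.

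Within the growth factor axis of macrophages, the ligand and the receptor differed in their values. Csf1, the ligand that keeps macrophages alive, was at 3.02, 3.64 and 3.75 in controls 0, 1 and 2, 11.3 in knockout 0 and 4.87 in knockout 1. Spi1, which encodes the transcription factor PU.1 that directs myeloid fate, was at 2.32, 2.15 and 2.05 in the controls and at 8.94 and 3.37 in knockouts 0 and 1. For both genes knockout 0 was far above and knockout 1 slightly above every control. Their log2 differences were 0.93 (SE 0.310, limma adjusted p = 0.127) and 1.06 (SE 0.338, adjusted p = 0.118). Csf1r, the receptor of CSF1 and of interleukin 34, behaved differently, at 25.2, 21.1 and 23.7 in the controls and at 28.8 and 26.7 in the knockout libraries. Its groups did not overlap, but the margin over control 0 was narrow, and the log2 difference was 0.24 (SE 0.0959, adjusted p = 0.168). In GENCODE M21, 15.1% of the exon bases of Csf1r are also exon bases of Hmgxb3 on the opposite strand. The sources used here do not say whether the counting used strand, so reads of the pair cannot be told apart there, and Hmgxb3 was at 7.92 to 9.31 in the controls against 7.53 in knockout 0 and 7.79 in knockout 1. Il34, the other ligand of CSF1R, was at 11.5, 4.66 and 8.03 in the controls against 31.9 in knockout 0 and 5.39 in knockout 1 (adjusted p = 0.538); knockout 0 was the sole library outside the control range.

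Surface markers of macrophages followed the same order of libraries. Adgre1, which encodes F4/80, was at 1.495, 1.29 and 1.36 in controls 0, 1 and 2, 5.87 in knockout 0 and 2.76 in knockout 1. That is 4.25 and 1.99 times the control mean, with a log2 difference of 1.09 (SE 0.257, limma adjusted p = 0.0683). Ms4a7, a tetraspanning membrane protein of macrophages, was at 1.12, 0.989 and 1.02 in the controls and at 6.29 and 1.94 in the knockout libraries (adjusted p = 0.115). Ms4a6c, of the same family, was at 1.55 to 1.82, then 7.17 and 2.23 (adjusted p = 0.176). Its value is uncertain, since 53.1% of its exon bases overlap a transcript on the opposite strand. Aif1, the calcium-binding protein IBA1 of activated macrophages, was at 2.99 to 3.46 in the controls against 11.5 in knockout 0 and 4.02 in knockout 1. None of these 4 genes had overlapping groups, and knockout 1 was the nearer of the pair to the controls each time.

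The 3 chains of C1q, the recognition subunit of the classical complement pathway, were among the most abundant members and had nearly equal ratios to the controls. C1qa was at 17.7, 17.4 and 18.4 in controls 0, 1 and 2, 82.9 in knockout 0 and 22.4 in knockout 1. C1qb was at 18.8, 17.6 and 18.3, then 82.9 and 22.2, and C1qc was at 15.5, 15.3 and 14.7, then 61.6 and 20.3. The controls differed by at most 1.07-fold within each chain, and knockout 0 stood 4.07 to 4.64-fold over the control mean, against 1.22 to 1.34-fold in knockout 1. Log2 differences were 1.23 (SE 0.513), 1.20 (SE 0.518) and 1.18 (SE 0.435), with limma adjusted p = 0.184, 0.197 and 0.152. In knockout 1 alone C1qc was called higher (adjusted p = 0.0453), and C1qa and C1qb did not pass (0.067 and 0.091). The 3 genes lie side by side on the minus strand of mm10 chromosome 4, from 136880129 to 136886187 (C1qb), 136889804 to 136893065 (C1qc) and 136895917 to 136898803 (C1qa).

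Among Fc receptors, which bind the constant part of antibodies, the inhibitory member stood apart from the activating ones. Fcgr1, the high-affinity receptor, was at 0.467 to 0.539 in the controls against 2.93 in knockout 0 and 0.64 in knockout 1. Fcgr3, a low-affinity activating receptor, was at 3.40, 3.80 and 3.30 in controls 0, 1 and 2, 14.1 in knockout 0 and 4.10 in knockout 1 (limma adjusted p = 0.215). Fcgr4, another activating receptor, was at 3.36, 2.75 and 3.03, then 9.30 in knockout 0, but 2.67 in knockout 1, below every control. Fcgr2b, the inhibitory receptor, which sinusoidal endothelial cells of the liver also make, was the most abundant member in the controls, at 42.3, 41.5 and 41.6. Alone among the tested members it was below every control in both knockout libraries, at 39.9 and 35.9, against 26.3% of all rows, and its log2 difference was -0.14 (SE 0.0746, adjusted p = 0.273). For the 7 endothelial genes tested the median difference from the controls on the log2 scale was 0.06 (knockout 0) and 0.14 (knockout 1), and their part in the level of Fcgr2b was not tested. Fcgr2b and Fcgr3 share a stretch of 129 identical bases between their longest coding transcripts in GENCODE M21, so reads can be split between them. Fcgr2b, Fcgr4 and Fcgr3 lie in that order on mm10 chromosome 1 between 170958617 and 171064935.

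Adaptor proteins that carry the signal of these receptors resembled the activating receptors. Fcer1g, the common gamma chain, was at 10.8, 11.8 and 10.7 in controls 0, 1 and 2, 49.4 in knockout 0 and 14.5 in knockout 1 (log2 difference 1.21, SE 0.477, limma adjusted p = 0.168). Tyrobp, which encodes DAP12, was at 11.5, 12.1 and 11.0, then 42.7 and 13.8 (log2 difference 1.02, SE 0.439, adjusted p = 0.196). Both were high in knockout 0 and just above the controls in knockout 1. Trem2, a lipid-sensing receptor that signals through DAP12, was the member in which the knockout libraries diverged most. It was at 0.330, 0.524 and 0.468 in the controls against 3.39 in knockout 0 and 0.184 in knockout 1, which is above and below every control. Trem2, at a mean of 0.98, just missed the filter on low values, while Fcgr1, at 1.01, just passed it.

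C-type lectins, which recognise sugars of fungi and of damaged cells, were low in the controls. Clec7a, which encodes the beta-glucan receptor Dectin-1, was at 0.969, 0.858 and 0.876 in controls 0, 1 and 2, 6.23 in knockout 0 and 1.56 in knockout 1 (log2 difference 1.18, SE 0.426, limma adjusted p = 0.147). Clec4n, which encodes Dectin-2, was at 0.305 to 0.394 in the controls and 3.08 in knockout 0, and at 0.364 in knockout 1 it lay among the controls. Dectin-1 transcripts were above the controls in both knockout libraries and those of Dectin-2 in knockout 0.

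Scavenger receptors, which bind modified lipoproteins and haemoglobin complexes, included the least abundant members. Mrc1, the mannose receptor CD206, was at 0.898, 0.914 and 0.876 in controls 0, 1 and 2, 4.05 in knockout 0 and 1.35 in knockout 1 (log2 difference 0.86, SE 0.320, limma adjusted p = 0.154). Msr1, scavenger receptor A, was at 0.245, 0.341 and 0.284, then 2.04 and 0.625. Cd163, the haptoglobin-haemoglobin receptor, was at 0.0760, 0.0509 and 0.0685 in the controls against 0.198 in knockout 0 and 0.0715 in knockout 1, which lay among the controls. Marco, a scavenger receptor with a collagen-like stalk, was at 0.00637 and 0.00292 in controls 0 and 1, listed at 0 in control 2, and at 0.0224 and 0.0191 in knockouts 0 and 1. Msr1, Cd163 and Marco were under the filter on low values, and Cd163 and Marco were close to the bottom of the table, so that no fold is given for Marco.

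Integrin subunits and the co-receptor CD14 were far above the controls in knockout 0. Itgax, the CD11c subunit of dendritic cells and of macrophages of the mouse kidney, was at 0.652, 0.588 and 0.617 in controls 0, 1 and 2, 5.15 in knockout 0 and 1.20 in knockout 1. That is 8.33 and 1.93 times the control mean, with a log2 difference of 1.18 (SE 0.423, limma adjusted p = 0.144). Itgam, the CD11b subunit, was at 0.219, 0.134 and 0.208, then 2.41 and 0.47, and was under the filter on low values. Its value is uncertain, since 68.7% of its exon bases belong to another annotated gene on the same strand. Cd14, a co-receptor for bacterial lipopolysaccharide, was at 3.34, 2.86 and 2.89 in the controls against 15.3 in knockout 0 and 4.85 in knockout 1 (log2 difference 1.28, SE 0.418, adjusted p = 0.122). All 3 genes were above every control in both knockout libraries.

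Genes of the lysosome and of pathogen killing included Lyz2 and Ctss, which had the largest log2 differences of the tested members. Lyz2, the lysozyme of macrophages, was at 18.01, 13.6 and 15.4 in controls 0, 1 and 2, 102.5 in knockout 0 and 32.9 in knockout 1. It ranked first of the 37 genes in knockout 0 by FPKM, against sixth in the controls, and its log2 difference was 1.84 (SE 0.462, limma adjusted p = 0.0768). Ctss, cathepsin S, which trims the invariant chain of class II molecules, was at 11.8, 10.4 and 11.8, then 67.5 and 19.9 (log2 difference 1.62, SE 0.480, adjusted p = 0.103). Mpeg1, the pore-forming protein perforin-2, was at 4.82, 4.15 and 4.20, then 20.9 and 6.74 (log2 difference 1.27, SE 0.423, adjusted p = 0.126). Cd68, a lysosomal membrane protein, was at 2.87 to 3.24 in the controls and at 14.3 and 4.06 in the knockout libraries. Lyz1, the lysozyme of Paneth cells in the mouse gut, was at 1.09 to 1.72, then 8.16 and 2.05, but it shares 118 identical bases in a row with Lyz2, its neighbour at a distance of 5.48 kb, so the split of reads between them is uncertain. In all 5 genes both knockout libraries were above every control.

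Transcripts common to white blood cells in general were above the controls in both knockout libraries. Ptprc, the leukocyte phosphatase CD45, was at 2.60, 2.42 and 2.32 in controls 0, 1 and 2, 7.37 in knockout 0 and 3.76 in knockout 1 (log2 difference 0.87, SE 0.239, limma adjusted p = 0.09). Cd52, a short glycoprotein of leukocytes, was at 16.7, 15.4 and 17.1, then 50.3 and 26.6 (log2 difference 1.11, SE 0.258, adjusted p = 0.0658), and 14.5% of its exon bases overlap a gene on the opposite strand. Cd53, a tetraspanin, was at 1.40 to 1.47 in the controls and at 5.76 and 2.09 in the knockout libraries (log2 difference 0.91, SE 0.324, adjusted p = 0.141). Laptm5, a lysosomal membrane protein of blood cells, was at 5.91 to 6.99, then 28.7 and 8.72. The ratio over the control mean was 3.01 to 4.50 for these 4 genes in knockout 0 and 1.37 to 1.62 in knockout 1.

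Promoters of members that were high together are shown because PU.1, encoded by Spi1, is known to bind purine-rich sites in the promoters of myeloid genes. RefSeq sequences of GRCm38.p6, from 250 bases before to 50 bases after a gene's start, were held for 27 of the 37 members. The letters GAGGAAGT, searched on both strands, occurred in 5 of these 27 genes (18.5%) and in 3.69% of the 27025 genes with a promoter in the table. The shorter GAGGAA, which the longer motif contains, occurred in 18 of 27 (66.7%) and in 31.3% of all genes. No test was made, and a match of letters is not a site of binding. The 4 promoters below, each written 5′ to 3′ on the gene's strand, belong to the tested members with the motif and the largest log2 differences, and Fcgr4 is the other gene with a match. Capitals mark the motif, which reads ACTTCCTC here because it lies on the opposite strand in all 4.
Ctss, chr3:95526536-95526835, plus strand: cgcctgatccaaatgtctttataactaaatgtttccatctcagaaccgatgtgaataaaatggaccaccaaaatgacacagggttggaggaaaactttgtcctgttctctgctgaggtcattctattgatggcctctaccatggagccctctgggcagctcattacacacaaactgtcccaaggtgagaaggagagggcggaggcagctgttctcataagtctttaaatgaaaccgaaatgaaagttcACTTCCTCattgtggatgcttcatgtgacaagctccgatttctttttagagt
Retnla, chr16:48842359-48842658, plus strand: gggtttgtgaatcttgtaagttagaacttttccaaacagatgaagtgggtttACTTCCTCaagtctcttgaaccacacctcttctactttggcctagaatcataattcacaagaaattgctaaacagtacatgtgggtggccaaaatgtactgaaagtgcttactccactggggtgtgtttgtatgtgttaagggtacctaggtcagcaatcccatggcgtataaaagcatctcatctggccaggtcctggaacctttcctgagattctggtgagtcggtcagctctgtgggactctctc
C1qc, chr4:136892865-136893164, minus strand: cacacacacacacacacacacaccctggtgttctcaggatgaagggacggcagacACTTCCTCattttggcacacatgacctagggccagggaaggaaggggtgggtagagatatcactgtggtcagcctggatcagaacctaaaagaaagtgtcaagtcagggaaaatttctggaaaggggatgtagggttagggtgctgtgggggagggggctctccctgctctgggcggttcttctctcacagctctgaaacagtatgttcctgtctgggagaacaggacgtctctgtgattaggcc
Cd53, chr3:106790100-106790399, minus strand: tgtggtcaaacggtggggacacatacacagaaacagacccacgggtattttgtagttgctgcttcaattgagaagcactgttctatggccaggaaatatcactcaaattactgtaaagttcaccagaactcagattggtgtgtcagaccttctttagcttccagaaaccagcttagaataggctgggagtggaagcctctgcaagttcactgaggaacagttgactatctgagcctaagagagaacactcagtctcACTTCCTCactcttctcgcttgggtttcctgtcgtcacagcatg
Counted from the starts of the RefSeq promoters, the motif begins 2 bases before the start of Ctss, 198 before that of Retnla and 195 before that of C1qc, and 6 bases after the start of Cd53. In GENCODE M21 Retnla starts at 48842551 and C1qc at 136893065, further upstream, so the distances from those starts are shorter. As given with each gene above or below, all 4 were above every control in both knockout libraries, as were 28 of the 30 tested members. The 4 were picked by their log2 differences, so their being high says nothing about the motif. Fcgr4, which also holds the motif, was above every control in knockout 0 and below every control in knockout 1.

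Resident and alternatively activated markers were then compared. The resident class held Adgre1, Csf1r, C1qa, C1qb and C1qc, and the alternatively activated class Mrc1, Cd163, Msr1, Clec7a, Arg1 and Retnla. Some markers of the second class, such as Mrc1 and Cd163, are also found on resident macrophages. Retnla was at 0.538, 0.409 and 0.686 in controls 0, 1 and 2, 3.70 in knockout 0 and 1.61 in knockout 1, above every control in both. Its log2 difference was 1.19 (SE 0.265, 95% interval 0.52 to 1.85, limma adjusted p = 0.0624). Arg1, the arginase that takes arginine away from nitric oxide synthesis, was at 0.0176, 0.0444 and 0.0528 in the controls against 0.255 in knockout 0 and 0.0399 in knockout 1, which lay among the controls. Fitted with no filter on low values, the log2 differences of Msr1, Cd163 and Arg1 were 0.79 (SE 0.276), 0.09 (SE 0.0502) and 0.14 (SE 0.0836), with limma adjusted p = 0.184, 0.349 and 0.377.

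In knockout 0, which class stood higher over the controls depended on the scale. As plain ratios of FPKM to the control mean in knockout 0, the 5 resident markers had a median of 4.25 (1.23 to 4.64) and the 6 alternatively activated markers one of 6.73 (3.03 to 7.03). Arg1 (ratio 6.66) and Cd163 (3.03) have control means of 0.038 and 0.065, close to the bottom of the table. Their ratios are uncertain, and so are the median and range that they enter. In knockout 1 the medians were 1.26 (1.15 to 1.99) for resident and 1.62 (1.04 to 2.96) for alternatively activated markers, whose ranges overlap. On log2(FPKM + 1), which compresses the change of low genes, the 5 resident markers had a median difference of 1.96 in knockout 0 and 0.32 in knockout 1. The 3 alternatively activated markers that passed the filter, Mrc1, Clec7a and Retnla, had 1.61 and 0.43, and all 6 had 1.32 and 0.32. Those 3 have control means under 1, so they passed the filter through the knockout libraries in which they are high, and their medians support nothing by themselves. In the fit of both knockout libraries the 2 class medians over these tested markers were 1.18 each, a difference of 0.00, and with a pseudocount of 0.1 the resident median was lower by a difference of -0.47. Within each class 1 or 2 genes set the extremes, with Csf1r at 1.23 times the controls in knockout 0 among resident markers and Arg1 and Cd163 within the controls in knockout 1 among alternatively activated ones.

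**Figure D3:**
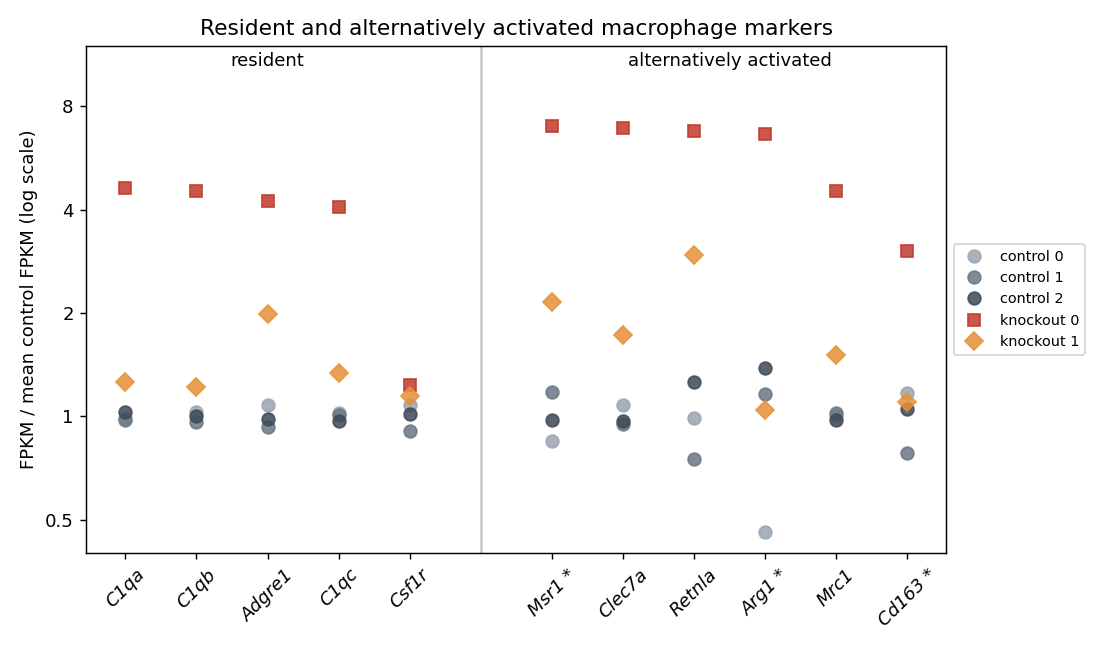
Points give FPKM over the mean control FPKM (vertical axis, log scale) of each marker in each library, resident markers on the left and alternatively activated markers on the right, with an asterisk on the 3 genes under the filter on low values. In knockout 0 all markers other than Csf1r lie at 3.03 or more, and in knockout 1 Arg1 and Cd163 lie among the controls.

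Levels were also set against Ptprc, as a leukocyte-wide reference, within each library. Relative to Ptprc, 30 of the other 36 members were above every control in knockout 0, 2 were below and 4 lay among the controls. In knockout 1, 12 were above, 18 below and 6 among the controls. Ptprc itself was at 3.01 and 1.54 times the control mean, so a gene at its control level falls below on this ratio. Over all 12639 tested rows other than Ptprc, 2.15% were above and 95.8% below every control in knockout 0, and 3.35% above and 88.8% below in knockout 1. Of the 29 tested members other than Ptprc, 24 were above and 2 below in knockout 0, and 9 above and 15 below in knockout 1. Among these, 9 members were above the control ratios in both knockout libraries, where 0.997% of all rows were: Adgre1, Itgax, Cd14, Lyz2, Ctss, Ms4a7, Clec7a, Retnla and Spi1. The margin over the highest control was narrow in knockout 1 for Spi1 (0.897 against 0.893), Cd14 (1.29 against 1.28) and Ctss (5.31 against 5.08). Itgax, Clec7a and Retnla, like Mrc1 and Fcgr1 among the 29, have control means under 1. They passed the filter through the knockout libraries in which they are high, so they support nothing by themselves. For Adgre1 the ratio to Ptprc was 0.533 to 0.587 in the controls against 0.797 in knockout 0 and 0.733 in knockout 1, whereas for C1qa it was 6.80 to 7.94, then 11.2 and 5.97. The ratio for Csf1r was 8.71 to 10.2 in the controls against 3.90 in knockout 0 and 7.10 in knockout 1, and that for Fcgr2b was 16.2 to 17.9, then 5.41 and 9.54. Those are the genes whose ratio was below every control in knockout 0. Lymphocytes also make Ptprc, so the ratio is not one to macrophage RNA alone.

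**Figure D4:**
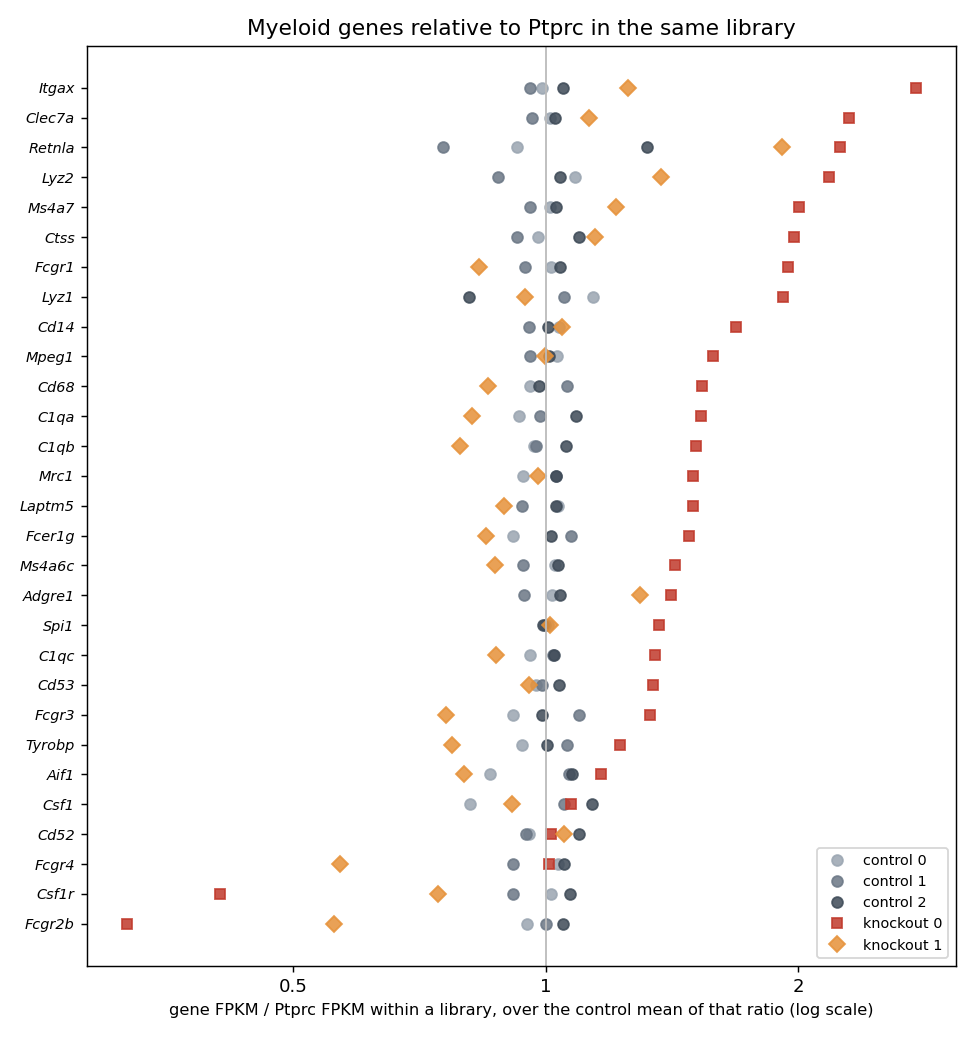
For the 29 tested members other than Ptprc, points give the gene's FPKM over that of Ptprc in the same library, divided by the mean of this ratio in the controls (log scale), sorted by knockout 0. Csf1r and Fcgr2b lie to the left of the controls in both knockout libraries, and the C1q chains lie to the right in knockout 0 and to the left in knockout 1.

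Further myeloid genes were taken from lists and not from the 37. Knockout 0 was the highest library for 14 of 15 tested phagocyte oxidase and signalling genes and 3 of 7 further resident genes. Among all tested rows 25.2% were highest there. Of 15 tested genes of the phagocyte oxidase and of myeloid signalling 0 were called higher and 0 lower in the limma fit of both libraries, against 2.73% and 3.62% of all rows. At an unadjusted p under 0.05, 10 were higher and 1 lower, against 12.5% and 16.6% of all rows. The control mean was under 1 for 6 of the 15. The median log2 difference of the 15 was 1.34 in knockout 0 and 0.28 in knockout 1. Cybb, the catalytic oxidase subunit, was at 1.78 to 1.94 in the controls against 6.47 in knockout 0 and 3.18 in knockout 1 (adjusted p = 0.0782), and Plek, pleckstrin, at 0.655 to 0.850, then 3.66 and 1.45 (adjusted p = 0.0996). The partner subunit Cyba, made by many cell types, was at 567.8 to 638.6, then 484.4 and 351.9 (adjusted p = 0.0984). Among 7 tested further resident genes 0 passed, and 2 were higher without adjustment (limma p under 0.05), against 12.5% of all rows. The median log2 difference of the 7 was 0.22 in knockout 0 and 0.24 in knockout 1. Their ratios to the control mean ran from 0.829 to 4.95 and from 0.593 to 1.96, so the median hides unlike genes. Cd81 was at 285.6 to 309.2 in the controls, then 350.2 and 310.6, and Maf at 94.05 to 139.3, then 101.5 and 134.2. Which cells made that RNA was not tested. The 3 genes of the list under the filter were above every control in both knockout libraries. Cx3cr1, the fractalkine receptor of kidney macrophages, was at 1.62 to 1.65 in the controls against 6.63 in knockout 0 and 3.19 in knockout 1 (adjusted p = 0.0643). Cd74, the invariant chain of class II molecules, was at 186.7 to 215.2, then 992.6 and 238.4 (adjusted p = 0.21). Folr2, a folate receptor of resident macrophages, was at 2.35 to 4.02, then 2.62 and 1.88 (adjusted p = 0.305).

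Other markers of activation were mixed. Of 4 tested classically activated genes, 1 was called higher, against 2.73% of all rows. It was Il1b, the cytokine interleukin 1 beta. Its control mean is under 1, so it passed the filter through the libraries in which it is high. It was at 0.666, 0.533 and 0.664 in controls 0, 1 and 2, 2.30 in knockout 0 and 1.57 in knockout 1 (log2 difference 0.85, SE 0.149, limma adjusted p = 0.0404). Cxcl10, an interferon-induced chemokine, was at 4.28 to 5.22, then 29.1 and 7.77 (adjusted p = 0.132), and Cxcl9 at 1.13 to 1.67, then 5.34 and 1.93 (adjusted p = 0.165). Of 5 further tested genes of alternative activation 0 passed, and 2 were higher without adjustment (limma p under 0.05), against 12.5% of all rows. Those 2, Ccl17 and Ear2, have control means under 1 and passed the filter through the libraries in which they are high. Ccl17, a chemokine for T cells, was at 0.356 to 0.632 in the controls against 4.10 in knockout 0 and 1.04 in knockout 1 (adjusted p = 0.138), Ear2, an eosinophil-associated ribonuclease, at 0.181 to 0.485, then 3.71 and 0.822 (adjusted p = 0.147), and Il4ra, the interleukin 4 receptor chain, at 4.72 to 4.95, then 6.37 and 5.31 (adjusted p = 0.173). Of 9 tested genes of lipid-associated macrophages 1 was called higher, against 2.73% of all rows. It was Apoe, apolipoprotein E, at 114.1 to 172.3 in the controls, then 266.9 and 297.1 (log2 difference 0.96, SE 0.186, limma adjusted p = 0.0471). Unlike all 37 members, Apoe was higher in knockout 1 than in knockout 0. The 9 genes were unlike each other, at 0.651 to 12.1 times the control mean in knockout 0 and 0.181 to 2.03 times in knockout 1. The call on Il1b was lost without control 0, 1 or 2 (limma adjusted p = 0.155, 0.111 and 0.188). That on Apoe was lost without any 1 of the controls (0.124, 0.081 and 0.197) and without knockout 0 or 1 (0.0728 and 0.0743). Cd36, a fatty acid transporter, was at 97.6 to 209.0, then 101.2 and 27.5 (adjusted p = 0.184). Of 2 tested genes among other colony-stimulating factors and their receptors 0 passed. Without adjustment 1 was higher (limma p under 0.05), against 12.5% of all rows. It was Csf2ra, a receptor chain for GM-CSF, at 4.87 to 5.83, then 13.02 and 6.79 (adjusted p = 0.142).

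Markers of other blood cells moved with these results in part. Monocyte genes, of which 5 were tested, included Ccr2, the receptor that draws monocytes out of the blood, at 0.863 to 1.25 in the controls against 7.29 in knockout 0 and 1.76 in knockout 1 (limma adjusted p = 0.152), and Plac8 at 14.5 to 19.4, then 60.1 and 20.6 (adjusted p = 0.181). Ly6c2, of inflammatory monocytes, at 1.55 to 1.91, then 1.76 and 1.89, and Ace, at 38.8 to 71.3, then 61.3 and 42.8, lay within the controls in both knockout libraries. Of these 5, 1 was called higher, against 2.73% of all rows. It was Nr4a1, an orphan nuclear receptor of patrolling monocytes that many stimulated cells induce, at 1.51 to 2.21, then 3.75 and 5.23 (limma adjusted p = 0.0461). That call was lost without control 0, 1 or 2 (0.164, 0.107 and 0.185). Of 5 tested dendritic cell genes 0 passed, and 1 was higher without adjustment (limma p under 0.05), against 12.5% of all rows. It was Irf8, a transcription factor of dendritic cells and monocytes, at 6.29 to 6.90, then 14.2 and 9.45 (adjusted p = 0.061). Of 5 tested lymphocyte genes 0 passed, and 3 were higher without adjustment (limma p under 0.05), against 12.5% of all rows. The control mean was under 1 for 4 of the 5. Cd3g, a chain of the T cell receptor complex, was at 0.475 to 0.676 in the controls against 2.62 in knockout 0 and 1.11 in knockout 1 (adjusted p = 0.111), and the summed FPKM of the 13 lymphocyte genes was 5.66 to 6.95 in the controls against 16.7 in knockout 0 and 8.81 in knockout 1. The mast cell gene Ms4a2, a chain of the IgE receptor, was at 0.455 ± 0.163 (SD, n = 3) in the controls, then 2.24 and 2.42 (log2 difference 1.20, SE 0.138, adjusted p = 0.0198), and it too passed the filter through the libraries in which it is high. The protease gene Tpsb2, under the filter, was at 0.047 to 0.103, then 0.306 and 0.715, while the other mast cell protease genes, Cpa3, Mcpt4 and Cma1, were at 0.0609 or less in every library. The call on Ms4a2 was lost without control 0 (adjusted p = 0.111) or control 2 (0.148).

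Neutrophil and red cell markers were measured too. Of the 10 neutrophil genes found, Cxcr2 alone passed the filter and was not called, at 0.936 to 1.14 in the controls against 1.32 in knockout 0 and 0.578 in knockout 1 (limma adjusted p = 0.785). Mpo and Elane were listed at 0 in all 5 libraries, which may be failed estimates and cannot show whether neutrophils were present. S100a8 was at 0.293 to 0.916 in the controls against 0.799 in knockout 0 and 0.847 in knockout 1. The summed FPKM of the list was 2.17 to 2.99, then 3.49 and 2.55. Of the 9 genes under the filter, 5 were above every control in knockout 0 and 2 in knockout 1, where 34.2% and 38.4% of all tested rows were. Red cell genes differed between the libraries, with Hba-a1 at 12.6 to 25.9 in the controls against 44.5 in knockout 0 and 4.89 in knockout 1, and Hbb-bs at 0.783 to 3.65, then 72.3 and 0.593. The part of blood cells left in the tissue was not tested. Of 7 fibroblast and pericyte genes 0 passed, and 2, Dcn and Pdgfrb, were higher without adjustment (limma p under 0.05), against 12.5% of all rows. The collagen gene Col1a1, not 1 of these, had the highest ratio of the 7 in knockout 0. It was at 6.81 to 13.4, then 41.2 and 10.2 (adjusted p = 0.316). Pdgfra, at 5.32 to 5.61, then 4.05 and 7.24, was below every control in knockout 0 and above every control in knockout 1. Over 7 tested collecting duct genes the median difference on the log2 scale was -0.69 for knockout 0 and -0.17 for knockout 1. Of these genes 0 passed and 3 were lower at an unadjusted limma p under 0.05, against 16.6% of all rows. The part of these cell types in the myeloid values was not tested.

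**Figure D5:**
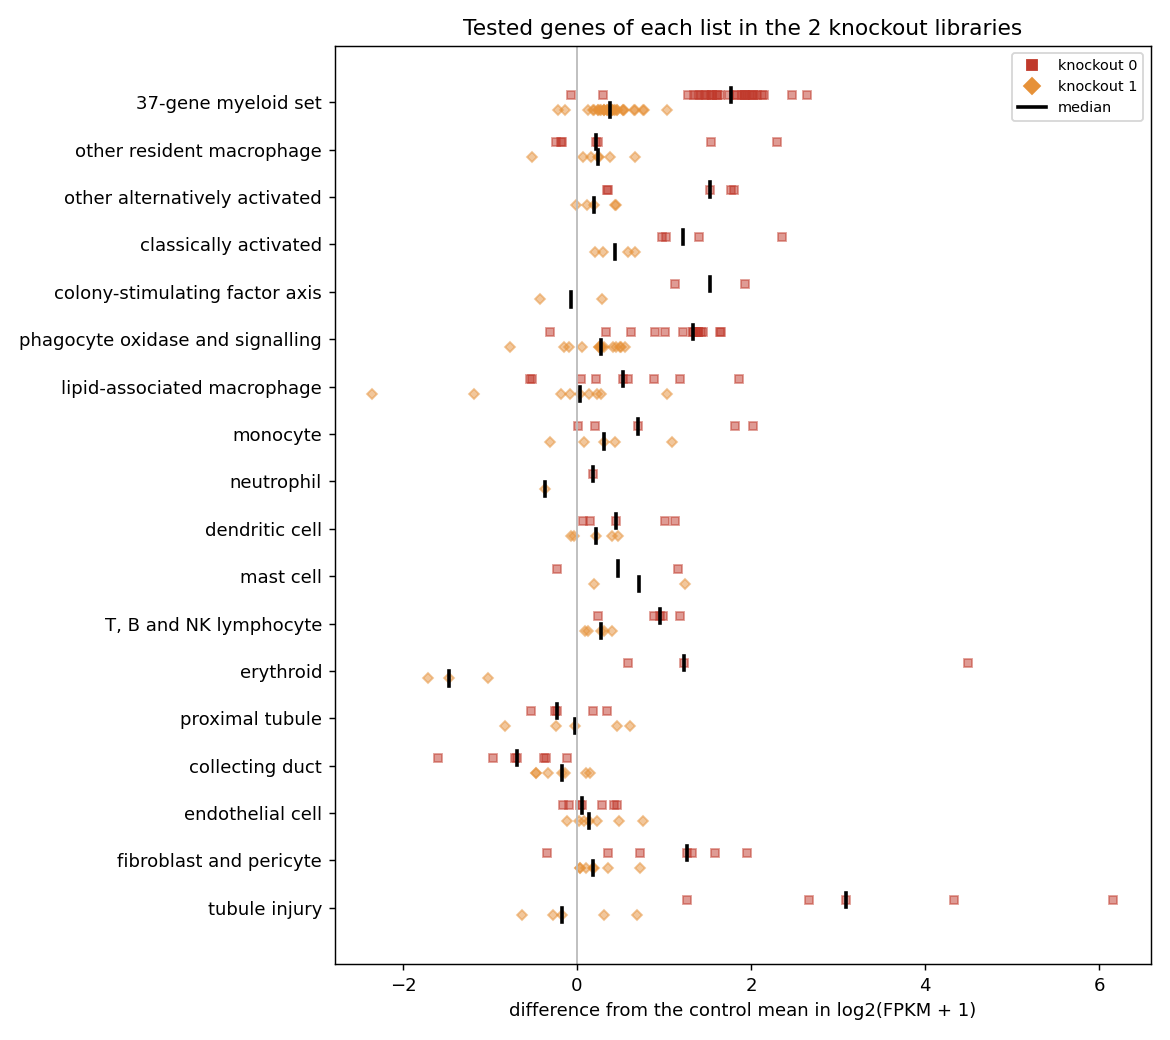
Each point is the difference of 1 tested gene from its control mean in log2(FPKM + 1) (horizontal axis) in knockout 0 (red squares) or knockout 1 (orange diamonds), by gene list, and black bars are medians. The median of the 30 tested members is 1.77 in knockout 0 and 0.38 in knockout 1, and tubule injury genes have the largest median in knockout 0, 3.09, beside -0.17 in knockout 1.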

How the data were processed

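Total RNA of whole kidneys was extracted with TRIzol and made into libraries with an Illumina mRNA-seq kit, per the labels' protocols. The deposited table holds the authors' FPKM, a fragment count divided by transcript length and by the size of the library, in 1 column for each library. The submitters' processing notes name bcl2fastq and mm10. Not given in the sources used here are the aligner, FPKM program, annotation and strandedness, and 0 value columns were left without a library.

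FPKM are not counts, so limma 3.58.1 in R 4.3.3 (eBayes with a variance trend, two-sided) was run on log2(FPKM + 1) over the 12640 rows averaging an FPKM of 1 or more, with Benjamini-Hochberg adjustment over all of them and a threshold of 0.05. Differences on this scale understate those of low genes. Depth is unknown, so no counting interval is given. The fits were tested on simulated data. Python 3.11.15, pandas 2.3.3, numpy 2.4.6 and matplotlib 3.10.9 were used.

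The members, classes and lists were chosen with earlier results of these data known. Named in full were members that passed, the 3 of each role with the smallest adjusted p, the resident and alternatively activated markers, and up to 3 genes of each other list, and the remaining members are given by their values. Genes named beyond this rule (Folr2, Cd81, Maf, S100a8, Mpo, Elane, Cpa3, Mcpt4, Cma1, Tpsb2, Ly6c2, Ace, Col1a1, Pdgfra, Havcr1, Aqp2, Lrp2, Slc34a1, Pkd1, Hmgxb3) were chosen after their values were seen. A gene that the rule takes is not reported here. Positions and exon overlaps come from GENCODE M21, promoters from RefSeq, both of the mm10 build (GRCm38). Alternatives were another pseudocount, other filters, 3 scalings, rows listed at 0 left out, other variance settings, the replicate number as a block, and each library left out in turn.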

Additional observations from a re-analysis of the deposited data

How the results depend on the processing

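Over the alternatives run, no member was called lower, and none was called higher in the fit of both knockout libraries except after rescaling to TPM, where 2 were, Cd52 (adjusted p = 0.0477) and Retnla (adjusted p = 0.0483). Over the alternatives their adjusted p ran from 0.00223 to 0.232 and from 0.00435 to 0.233. Leaving out a library gave 0 to 28 members called higher, with 0 without any control, 12 without knockout 0 and 28 without knockout 1. The median log2 difference of the members, 1.11, ranged from 0.38 to 1.77 over the libraries left out. It was 1.27 with a pseudocount of 0.1, 1.02 with no filter, 1.18 at a mean FPKM of at least 5, 1.27 in TPM and 1.03 after quantile normalization. The resident minus alternatively activated difference, 0.00, ranged from -0.11 to 0.345 over the libraries left out. It was -0.47 with a pseudocount of 0.1, 0.355 with no filter, -0.18 in TPM and 0.13 after quantile normalization, and at a mean FPKM of at least 5 no alternatively activated marker was left. The cause of these shifts was not tested. Fcgr4, at 0.61 with all libraries, was at -0.14 without knockout 0 and at 1.35 without knockout 1.

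With the replicate number as a block, 0 members were called and the median log2 difference was 1.08. Deviations from the group means correlated at 0.0863 between libraries numbered 0 and at 0.00236 between libraries numbered 1. With 2 knockout libraries the deviations of the pair mirror each other, so these values cannot show whether the numbers pair the libraries. The calls on Il1b, Apoe, Nr4a1 and Ms4a2 were lost with the block (adjusted p = 0.247, 0.205, 0.264 and 0.205). Those on Il1b, Apoe and Nr4a1 were also lost with no filter (0.0527, 0.0838 and 0.0833), those on Il1b and Nr4a1 after quantile normalization (0.0639 and 0.0714), and that on Apoe with no variance trend (0.0507). Over all genes 28 were called with the block and 802 without it, against 482 with no filter, 37, 155 and 36 on leaving out control 0, 1 or 2, and 1054 or 2599 on leaving out knockout 0 or 1. In TPM the split over all genes was 454 higher to 266 lower, against 345 to 457 in FPKM, and the median of all genes moved from -0.02 to 0.06. Depth is unknown, so its limit on low genes could not be given.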
